A study of Mus musculus with 6 samples.

Results

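The 10 genes described here act at the surface of the lipid droplet: the patatin-like lipases Pnpla2, Pnpla3 and Pnpla5, the cofactor Abhd5, the lipase inhibitor G0s2, the hydrolases Lipe and Mgll, and the CIDE proteins Cidea, Cideb and Cidec. They were taken as all probe sets (groups of oligonucleotides read as 1 value) that the array annotation assigns to exactly 1 of these symbols, which gave 17 of the 45037 probe sets other than controls. The array names 18193 genes in this way. The samples were livers of 3 KRAP-/- mice and 3 wild-type littermates, 1 from each pair, and all 6 animals were 32 weeks old and ate normal chow. KRAP, whose gene is now listed as Itprid2, was deleted in every cell of the body by exchanging several coding exons for a pGKneo cassette, and the line was crossed back to C57BL6/J. The wild-type mice carried the intact gene. Total RNA of each liver was hybridized to 1 Affymetrix mouse genome array, so each value is a mixture of all liver cells, in which fewer cells of a type and less RNA per cell cannot be told apart. The study asked which genes differ in expression in the liver of these mice.

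Liver cells store surplus fatty acids as triglyceride in droplets, which carry a coat of proteins. Pnpla2, also called ATGL, removes the first fatty acid from a triglyceride, with Abhd5 (CGI-58) as its activator and G0s2 as its inhibitor. Lipe, the hormone-sensitive lipase, acts mainly on the diglyceride that remains, and Mgll splits the monoglyceride. Pnpla3 and Pnpla5 share the patatin-like domain of Pnpla2, and a common human variant of the former is known for its association with fatty liver. The CIDE proteins act on droplet growth and lipid transfer: Cideb is the form of normal hepatocytes and takes part in loading lipid onto very low density lipoprotein, whereas Cidea and Cidec are best known from fat tissue.

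The probe set of Itprid2 itself read 21.6, 21.3 and 20.0 in the KRAP-/- livers of pairs 1, 2 and 3 and 23.9, 24.5 and 22.3 in their littermates, where 1 is the median signal of an array. Whether it lies in the deleted exons is not given in the sources used here, so it checks nothing about the labels.

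None of the 8 lipid droplet genes that could be tested passed the test for a difference between KRAP-/- and wild-type liver. The bright probe sets of Pnpla2, Abhd5, Mgll and Cideb had 95% intervals that stayed inside a 1.5-fold change either way, and that of Lipe was wider. Pnpla5 had all 3 KRAP-/- livers below all 3 wild-type livers, but at dim signals, and G0s2 was lower in the KRAP-/- mouse of pairs 1 and 3 and higher in that of pair 2. Pnpla3, Cidea and Cidec were too dim or too variable to compare.

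For the test, 12 of the 17 probe sets, from 8 of the 10 genes, reached the minimum mean signal of 0.5 array medians. Of these 12, limma (littermate pairs as blocks, adjusted p under 0.05) called 0 higher and 0 lower in KRAP-/- mice, against 0.431% higher and 0.978% lower of all 28531 probe sets tested. At an unadjusted p under 0.05 there were 2, Pnpla5 and G0s2, where 14.9% of all probe sets tested fell under it. The log2 fold change (KRAP-/- minus wild-type) was below 0 for 8 of the 12, with a median of −0.02, and 55.2% of all probe sets tested were below 0, with a median of −0.04. By a fold limit like that of the study, a ratio of at least 1.5 in the same direction in each of the 3 pairs, but taken here on values divided by the array median and with dim probe sets included, 0 of the 17 were higher and 0 lower, against 2.3% and 2.88% of all 45037 probe sets. The groups did not overlap for 1 of the 12, Pnpla5, with KRAP-/- below wild-type, a pattern that 12.3% of the probe sets tested had, and for 0 of the 12 with KRAP-/- above, which 7.8% had. Thus the members' counts lay near or below the shares of the array as a whole.

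**Figure D1:**
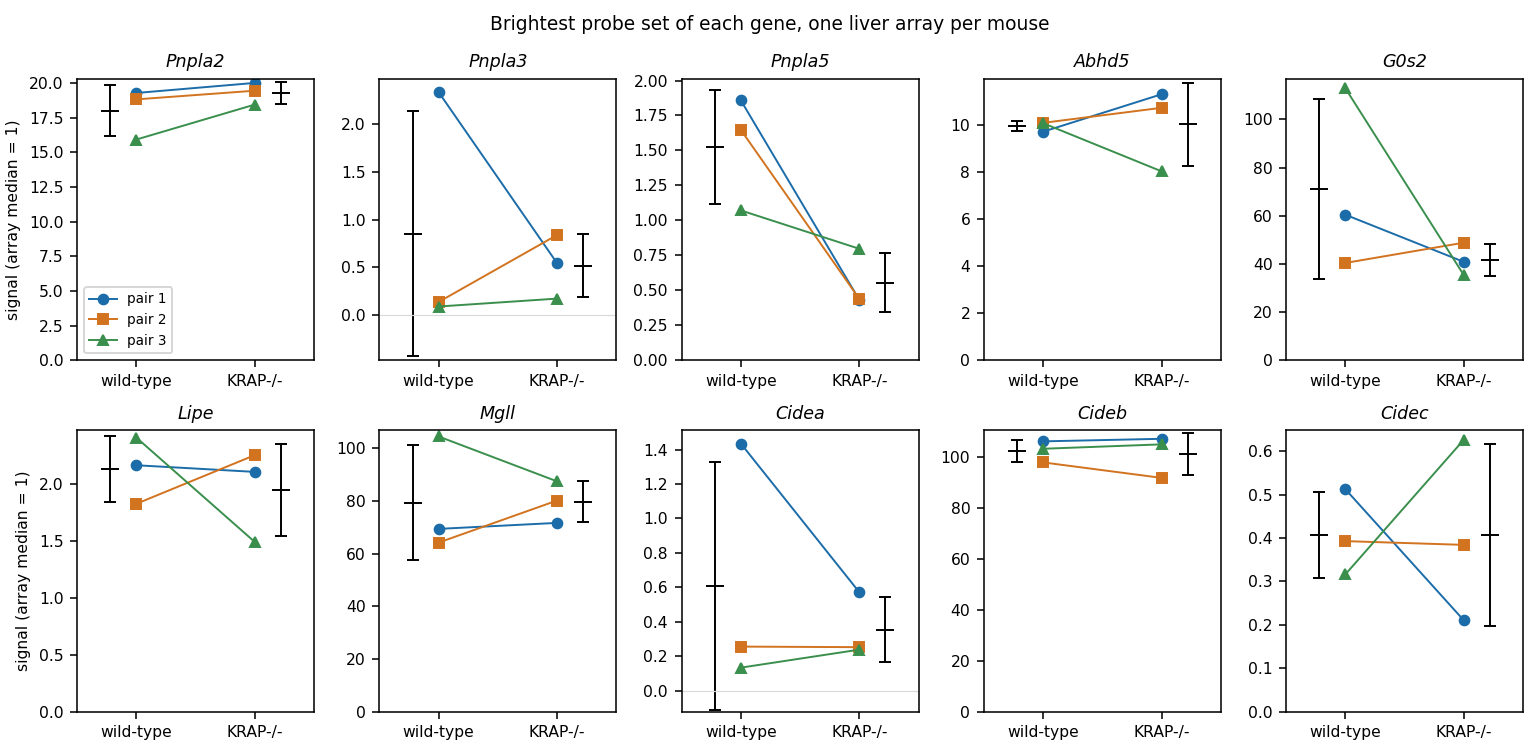
Signal in units of the array median (y axis, linear) of the brightest probe set of each of the 10 genes in wild-type and KRAP-/- liver. Each point is 1 mouse, lines join littermates, and the black bars beside them are the mean ± SD of the 3 mice of a genotype. The 3 KRAP-/- values of Pnpla5, 0.430 to 0.796, lie below its 3 wild-type values, 1.07 to 1.86, and the other genes overlap between the genotypes. Each panel has its own scale, and signals of different probe sets cannot be set against each other.

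The first enzyme of lipolysis, Pnpla2, had a signal of 20.0, 19.4 and 18.4 in the KRAP-/- livers of pairs 1, 2 and 3, and of 19.3, 18.8 and 15.9 in their wild-type littermates. It was slightly higher in the KRAP-/- mouse of each pair, yet the genotypes overlapped and the log2 fold change of 0.10 was within its error (standard error, SE, 0.10, 95% interval −0.12 to 0.33, adjusted p = 0.67 by limma). As a fold this interval runs from 0.921 to 1.26. A second, dim probe set of Pnpla2 read 0.272 to 0.860 in KRAP-/- and 0.433 to 0.491 in wild-type liver, and its interval of −1.22 to 1.74 leaves its direction unknown.

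The activator Abhd5 was read by 3 probe sets. The first had 11.3, 10.7 and 8.03 in KRAP-/- liver and 9.71, 10.1 and 10.1 in wild-type liver, with a log2 fold change of −0.01 (SE 0.14, adjusted p = 0.99 by limma) that became 0.04 on the values as deposited and 0.06 after quantile normalization. The second had 7.40, 8.80 and 9.13 against 8.29, 10.1 and 9.21, lower in the KRAP-/- mouse of each pair, with a log2 fold change of −0.13 (SE 0.12, adjusted p = 0.67 by limma). The third stayed at or below 0.539 on all arrays and was not tested. Thus both readable probe sets put any change of Abhd5 between 0.762- and 1.23-fold.

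The inhibitor G0s2 was the most variable of the members with a clear signal. It read 40.8, 48.8 and 35.3 in the KRAP-/- livers and 60.4, 40.4 and 113 in their littermates, which is 41.6 ± 6.82 against 71.2 ± 37.4 (SD, n = 3 each). The KRAP-/- mice lay close together, and the wild-type mice ranged from the level of the KRAP-/- mice in pair 2 to well above it in pair 3. The ratios within the pairs were 0.675, 1.21 and 0.312. The log2 fold change was −0.66 (SE 0.28, 95% interval −1.28 to −0.03), with an unadjusted p of 0.041 and an adjusted p of 0.31 by limma. This value turned on single pairs: it was −0.15 (adjusted p = 0.72) without pair 3, −0.70 (adjusted p = 0.28) without pair 1, and −1.12 without pair 2, where G0s2 passed the threshold (adjusted p = 3.4e-04, limma in each case).

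The later steps of lipolysis showed the same wild-type mouse of pair 3 at the upper end. Mgll, the monoglyceride lipase, had 71.7, 80.2 and 87.4 in KRAP-/- liver and 69.4, 64.2 and 104 in wild-type liver at its brightest probe set. Its other readable probe sets had 37.8, 44.9 and 41.9 against 38.5, 35.1 and 62.4, and 31.1, 40.2 and 42.8 against 32.9, 28.9 and 59.8. All 3 put the KRAP-/- mouse above its littermate in pair 2 and below it in pair 3. They read the same gene and are not independent, and their log2 fold changes were 0.04, −0.08 and −0.03 (adjusted p = 0.91, 0.84 and 0.95 by limma), the last of which turned to 0.02 on the values as deposited and to 0.03 after quantile normalization. A further probe set of Mgll did not exceed 0.5 and was not tested.

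Lipe had 2.10, 2.25 and 1.49 in KRAP-/- and 2.16, 1.82 and 2.40 in wild-type liver. The genotypes overlapped, with a log2 fold change of −0.14 (SE 0.25, adjusted p = 0.83 by limma) and an interval of 0.613- to 1.34-fold, which holds folds below 1/1.5. Its other probe set read 0.102 to 0.637 and was not tested.

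Among the 12 tested probe sets, the wild-type mouse of pair 3 had the highest value of all 6 arrays in 5, those of G0s2, Lipe and Mgll. Of all probe sets tested, 17% were highest on that array. The KRAP-/- mouse of pair 1 was highest in 4 of the 12, against 17.3% of all probe sets tested. The 5 highest in the wild-type mouse of pair 3 come from 3 genes, Mgll giving more than 1 of them. These counts were made after the values had been seen. The bright probe set of Pnpla2 was at its lowest in the liver of that wild-type mouse, at 15.9. Plin2, the main coat protein of hepatocyte droplets, had its highest value there as well, 272 against 168 and 168 in the other wild-type livers and 180, 188 and 196 in the KRAP-/- livers. Its log2 fold change was −0.07 (adjusted p = 0.83 by limma).

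Pnpla5, a patatin-like lipase that has been linked to droplet breakdown by autophagy, had the largest fold difference among the member probe sets tested, at dim signals. Its only probe set read 0.430, 0.438 and 0.796 in the KRAP-/- livers and 1.86, 1.65 and 1.07 in their wild-type littermates, or 0.555 ± 0.209 against 1.53 ± 0.407 (SD, n = 3 each). Every KRAP-/- liver was below every wild-type liver, although the gap was wide in pairs 1 and 2 (ratios of 0.232 and 0.266) and small in pair 3 (0.744). The log2 fold change was −1.48 (SE 0.45, 95% interval −2.49 to −0.48), with an unadjusted p of 0.0087 and an adjusted p of 0.17 by limma, which does not pass. Over the alternative settings it ranged from −2.01 to −1.14, and its adjusted p from 0.061 without pair 3 to 0.49 with no filter on dim probe sets. These signals are dim. For scale, the 9 probe sets of the Y-chromosome genes Eif2s3y, Kdm5d and Uty had a median of 0.0525 on these arrays and reached 0.526 at most. The median lies below every value of Pnpla5. The maximum lies above 2 of its KRAP-/- values and below all 3 of its wild-type values. This scale was chosen after the values had been seen, and the sex of these mice is not given in the sources used here.

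Pnpla3, called adiponutrin, is a neighbour of Pnpla5 on chromosome 15 in the GRCm38.p6 gene order, with 2 non-coding gene models and 0 coding genes between them. It showed no such pattern. It read 0.541, 0.838 and 0.169 in KRAP-/- and 2.34, 0.133 and 0.086 in wild-type liver. Only the wild-type mouse of pair 1 was above the array median, and the ratios within the pairs were 0.231, 6.29 and 1.97. The log2 fold change of 0.43 had an SE of 1.05 and an interval of −1.93 to 2.79 (adjusted p = 0.89 by limma), and it turned to −0.12 with a floor of 0.25 and to −0.68 without pair 2. The level of Pnpla3 in these livers could therefore not be compared.

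The bases before the start of Pnpla5, Pnpla3 and G0s2 are shown because the first and the last of these had the lowest unadjusted p-values and the other is the neighbour of Pnpla5. The sequences are those of RefSeq on GRCm38.p6, 250 bases each, 5′ to 3′ along the transcribed strand up to the base before the start, with matches to the motifs searched in capitals. They lie at chr15:84123176-84123425 (minus strand) for Pnpla5, chr15:84167566-84167815 (plus strand) for Pnpla3 and chr1:193273189-193273438 (minus strand) for G0s2.
Pnpla5: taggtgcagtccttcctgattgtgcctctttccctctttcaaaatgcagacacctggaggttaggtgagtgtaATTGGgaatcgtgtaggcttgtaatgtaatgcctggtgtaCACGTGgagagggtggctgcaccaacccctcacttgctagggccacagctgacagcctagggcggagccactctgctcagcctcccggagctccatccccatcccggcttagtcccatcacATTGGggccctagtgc
Pnpla3: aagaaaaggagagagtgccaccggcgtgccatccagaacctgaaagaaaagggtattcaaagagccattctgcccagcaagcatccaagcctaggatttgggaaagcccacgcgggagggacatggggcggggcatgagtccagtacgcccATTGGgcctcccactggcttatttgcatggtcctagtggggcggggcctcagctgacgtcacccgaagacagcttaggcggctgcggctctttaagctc
G0s2: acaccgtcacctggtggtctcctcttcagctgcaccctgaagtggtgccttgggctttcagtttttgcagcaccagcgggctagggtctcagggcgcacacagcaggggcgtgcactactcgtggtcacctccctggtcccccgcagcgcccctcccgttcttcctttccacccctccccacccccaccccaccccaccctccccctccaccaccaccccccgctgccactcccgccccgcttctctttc

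The motifs were searched on both strands of these windows for 9 of the 10 members, which together have 12 starts. Cidea was not searched. The NF-Y box CCAAT, read here as ATTGG since it lies on the opposite strand, was found 177 and 16 bases before the start of Pnpla5 and 99 bases before that of Pnpla3, so in 2 of 12 windows, and 33.8% of all 32851 windows of the table hold it. The E-box CACGTG was found 137 bases before the start of Pnpla5, 155 before 1 of the starts of Lipe and 44 before 1 of those of Mgll, 3 of 12 windows, against 6.02% of all. The nuclear receptor motif AGGTCA was found in 1, that of Abhd5 (69 bases before the start), against 14.0% of all. The sterol response element TCACNCCAC was found in 0 of 12 (1.05% of all), and its looser form TCACNCNAC, which includes it, also in 0 (2.26% of all). G0s2 held none of these letters in its window. A match describes the letters alone.

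Cideb, the CIDE protein of hepatocytes, was the steadiest of the members. It read 107, 91.9 and 105 in KRAP-/- liver and 106, 98.0 and 103 in wild-type liver, where the highest value was 1.17 times the lowest. Its log2 fold change was −0.02 (SE 0.08, 95% interval −0.20 to 0.16, adjusted p = 0.94 by limma), and 0.03 on the values as deposited and after quantile normalization. As a fold this interval runs from 0.873 to 1.12.

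Both CIDE genes of fat tissue were below the limit for the test. Cidec read 0.210, 0.384 and 0.627 in KRAP-/- and 0.512, 0.393 and 0.316 in wild-type liver, and the means of the genotypes were equal to 3 digits, at 0.407. Cidea read 0.571, 0.252 and 0.238 in KRAP-/- and 1.44, 0.255 and 0.133 in wild-type liver. Its only value above the array median was in the wild-type mouse of pair 1, the same mouse that was highest for Pnpla3.

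**Figure D2:**
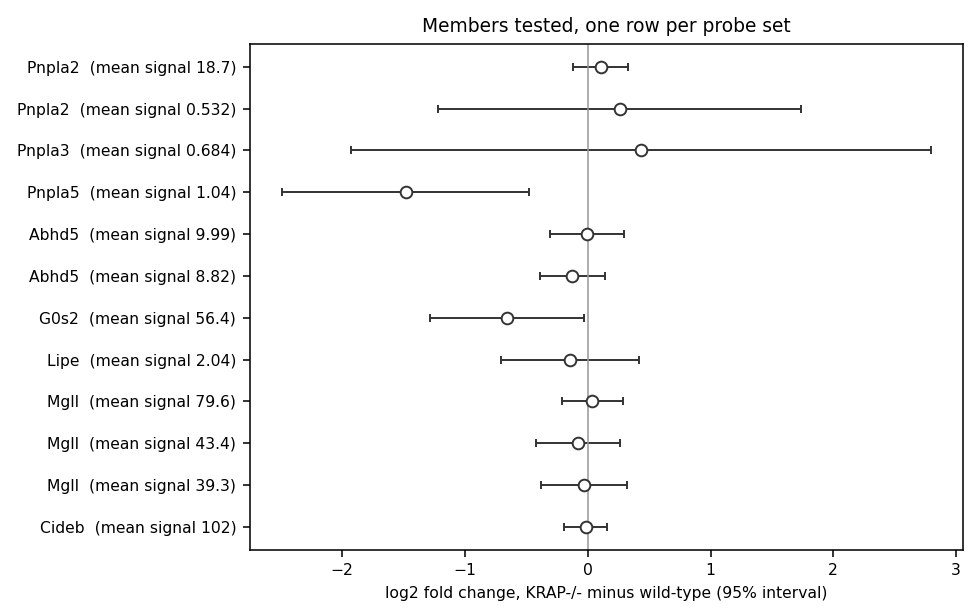
Log2 fold change, KRAP-/- minus wild-type (x axis), of the 12 tested probe sets of the member genes, with the mean signal of each over 6 arrays beside its name. Points are limma estimates and bars their 95% intervals, not adjusted for the number of tests. The intervals of Pnpla5 and G0s2 lie below 0, those of Pnpla3 and of the dim probe set of Pnpla2 are the widest, and the 7 probe sets of Pnpla2 (bright), Abhd5, Mgll and Cideb whose bars stay inside a 1.5-fold change lie between 0.746- and 1.26-fold.

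Fat cell transcripts were also high in the wild-type mouse of pair 1, though not all of them were highest there. Adipoq, which encodes the fat cell hormone adiponectin, read 0.144, 0.032 and 0.253 in KRAP-/- and 2.20, 0.694 and 0.444 in wild-type liver. All 3 KRAP-/- livers were below all wild-type livers, but the log2 fold change of −2.51 did not pass (SE 0.92, adjusted p = 0.25 by limma). Fabp4, a fatty acid binding protein of fat cells and macrophages, read 8.16, 8.73 and 10.2 against 22.8, 10.7 and 7.81, and Ucp1, of brown fat cells, 0.176, 0.117 and 0.062 against 2.35, 0.235 and 0.443. A second probe set of Fabp4 read 4.30, 5.39 and 9.70 against 9.28, 4.73 and 2.90, highest in the KRAP-/- mouse of pair 3 and with a log2 fold change of opposite sign, 0.27 (adjusted p = 0.80 by limma). Retn, the fat cell hormone resistin, was highest in that mouse as well, at 0.144, 0.105 and 0.963 against 0.864, 0.773 and 0.249. Lep, which encodes leptin, stayed at or below 0.331. These 5 fat cell markers at their brightest probe sets summed to 8.73 to 11.6 in KRAP-/- and 9.05 to 28.6 in wild-type liver. Most of this sum was Fabp4. Of the 5, 0 passed the threshold, and 2, Adipoq and Ucp1, were lower in every KRAP-/- liver than in any wild-type liver. Adipoq and Ucp1 therefore had the order of genotypes seen for Pnpla5, which 12.3% of all probe sets tested had. The ratios within pairs 1, 2 and 3 were 0.0652, 0.0458 and 0.570 for Adipoq beside 0.232, 0.266 and 0.744 for Pnpla5. For Adipoq and Pnpla5 the ratio was highest in pair 3. The same held for Fabp4 (brightest probe set) and Retn, whereas for Ucp1 and Lep the ratio was highest in pair 2. For Ucp1 the gap between littermates was narrowest in pair 2. Fabp4 (brightest probe set) and Retn were higher in the KRAP-/- mouse of pair 3, with ratios of 1.31 and 3.86. Lep, at dim signals, was higher in the KRAP-/- mouse of pair 2, with a ratio of 1.88. Among all probe sets tested, 24.2% had their highest value in the wild-type mouse of pair 1, more than on any other array. The part of fat tissue in the values of Pnpla5, Pnpla3 and Cidea was not tested.

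**Figure D3:**
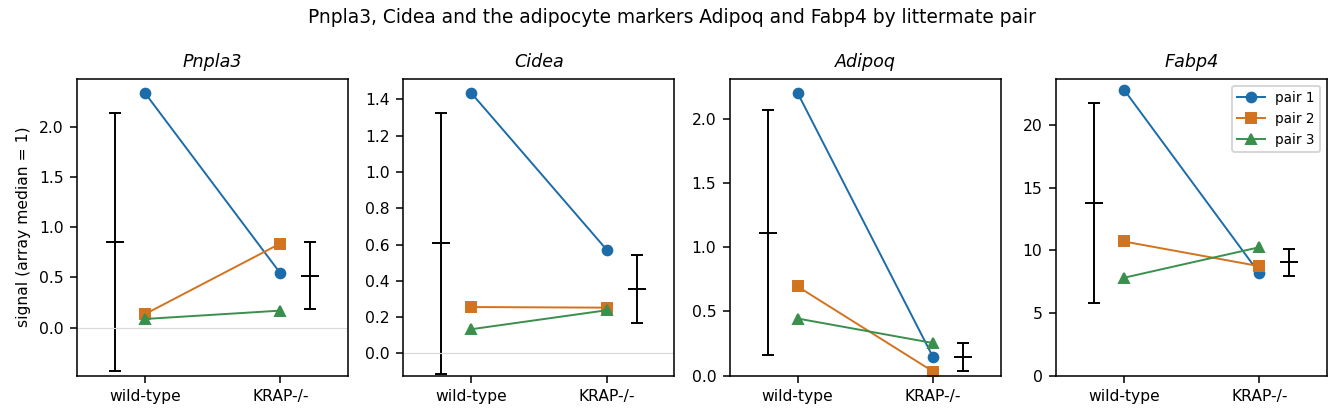
Signal in units of the array median (y axis, linear) of Pnpla3, Cidea and the fat cell markers Adipoq and Fabp4 by genotype. Points are mice, lines join littermates and black bars are mean ± SD (n = 3). The wild-type mouse of pair 1 is highest in all 4 panels, at 2.34, 1.44, 2.20 and 22.8, as it was for 24.2% of all probe sets tested. Fabp4 is shown at its brightest probe set. Retn and a second probe set of Fabp4, not shown, were highest in the KRAP-/- mouse of pair 3, at 0.963 and 9.70.

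Markers of the other cell types were read in the same way. For scale, 12.3% of all probe sets tested had every KRAP-/- liver below every wild-type liver, and 0.978% passed as lower. The 8 hepatocyte genes, such as Alb and Apoa1, summed to 4035 to 4627 in KRAP-/- and 4173 to 4242 in wild-type liver, and 0 of them passed the test. The 4 Kupffer cell genes summed to 72.9 to 77.7 against 90.3 to 102, with all 4 lower in each KRAP-/- liver and 1 past the threshold, Clec4f at −0.54 on the log2 scale (adjusted p = 0.025 by limma). For 4 endothelial genes the ranges were 74.1 to 78.0 against 80.8 to 86.3, and 1 of them, Clec4g, was lower in every KRAP-/- liver. For 4 stellate cell genes they were 180 to 188 against 153 to 177, a sum mostly of Dcn, whereas 1 of the 4, Lrat, was lower in every KRAP-/- liver, at 4.67, 6.56 and 6.09 against 9.14, 8.72 and 9.14 (adjusted p = 0.070 by limma). For 4 bile duct genes they were 3.82 to 5.43 against 5.16 to 6.35, with 1 of the 4, Sox9, lower in every KRAP-/- liver. The part of these cells in the values of the members was not tested.

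Of the other genes of lipid droplets and neutral lipid turnover, 33 of 36 had a probe set and all 33 were tested at their brightest one. Plin4 passed as higher, Acsl3 as lower, and 31 did not pass, with a median log2 fold change of −0.04. So 1 of 33 passed in each direction, beside 0.431% of all probe sets tested as higher and 0.978% as lower. An unadjusted p under 0.05 by limma was found for 9 of the 33, against 14.9% of all, and 18 of the 33 were below 0, against 55.2% of all. These shares include dim and further probe sets of a gene, whereas the 33 are the brightest of each, so the sets are unlike. With a minimum mean of 1, 3844 of 22277 probe sets fell under that unadjusted p. By role, 1 of 4 coat proteins passed (median 0.17), 0 of 10 genes of droplet formation and other droplet proteins (median 0.16), 0 of 13 other lipases (median −0.05) and 1 of 6 genes of lipid synthesis at droplets (median −0.20).

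Plin4, a perilipin of the droplet coat that is abundant in fat and muscle, read 5.72, 4.63 and 3.65 in KRAP-/- and 1.47, 1.40 and 2.05 in wild-type liver. It was higher in every KRAP-/- liver, with a log2 fold change of 1.51 (SE 0.24, adjusted p = 0.020 by limma). Plin5, the perilipin of tissues that burn fat, read 31.2, 35.5 and 33.2 against 24.7, 21.8 and 29.3, without overlap, and its log2 fold change of 0.41 did not pass (adjusted p = 0.14 by limma). Plin3, a coat protein found in most tissues, had −0.10 (adjusted p = 0.80 by limma). The values of Plin2, Plin3, Plin5, Fabp4 and Ucp1 are given here after they had been seen.

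Acsl3, which activates fatty acids for lipid synthesis at the growing droplet, read 8.18, 10.1 and 8.33 in KRAP-/- and 15.6, 16.0 and 15.8 in wild-type liver. It was lower in every KRAP-/- liver, with a log2 fold change of −0.84 (SE 0.11, adjusted p = 0.010 by limma). Its other probe sets had −0.23 (adjusted p = 0.61) and −1.16 (adjusted p = 0.24, limma in both cases) and did not pass. Neither Plin4 nor Acsl3 passed when no filter on dim probe sets or no intensity trend was used, settings in which 0 of all probe sets passed.

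**Figure D4:**
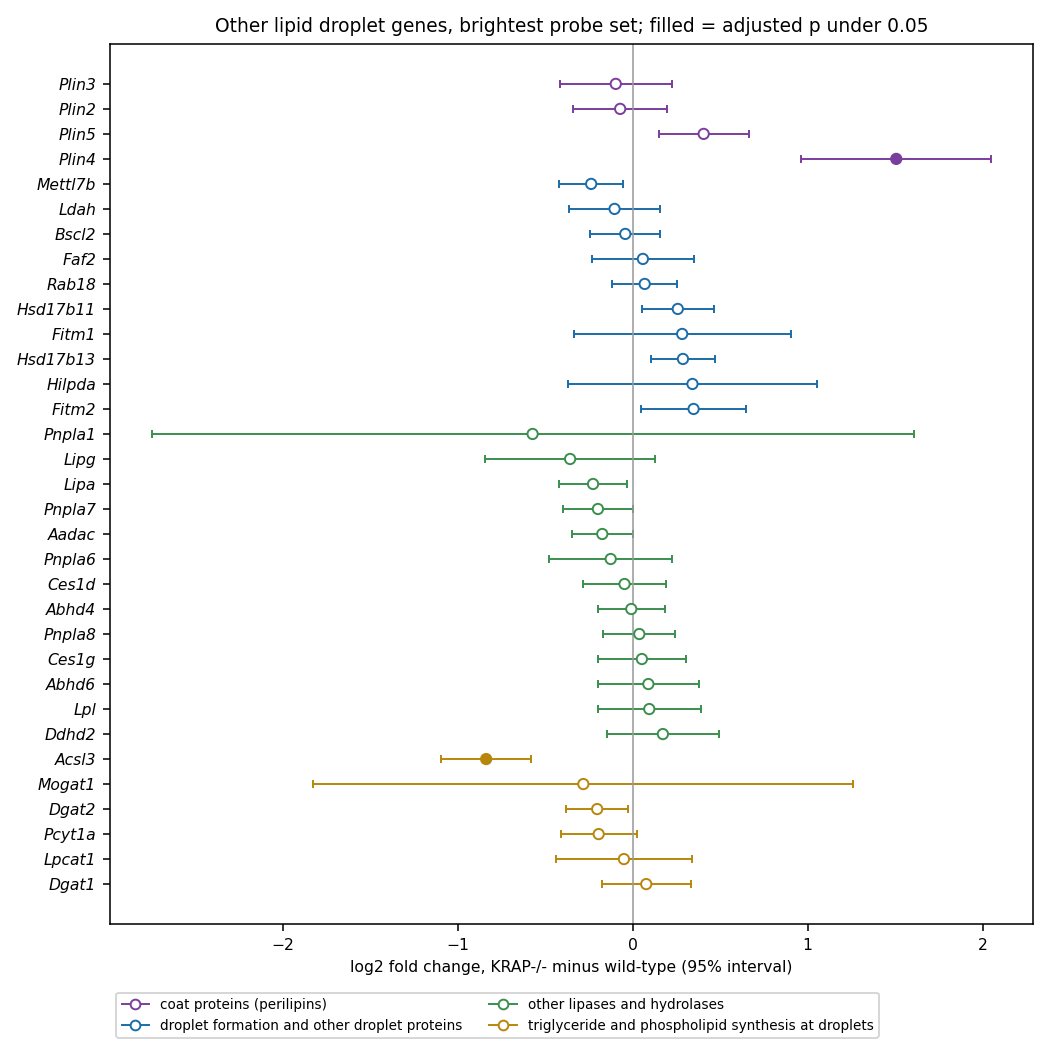
Log2 fold change, KRAP-/- minus wild-type (x axis), of the 33 other lipid droplet genes, coloured by role, at the brightest probe set of each. Points are limma estimates, bars their 95% intervals, and filled points have an adjusted p under 0.05. Plin4 at 1.51 and Acsl3 at −0.84 are the filled points.

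The genes whose 6 values, centred on the log2 scale, were closest to those of Pnpla5 were 1810008I18Rik, Tiam2, an activator of the small GTPase Rac, and Nudt7, a hydrolase of coenzyme A in peroxisomes. The root mean square differences were 0.186, 0.209 and 0.229 on the log2 scale over 6 arrays, the smallest among 19207 probe sets compared. Nudt7 read 24.5, 26.6 and 30.3 in KRAP-/- and 96.2, 73.6 and 59.0 in wild-type liver. Its gap between littermates was widest in pair 1 and narrowest in pair 3. The log2 fold changes were −1.53 for 1810008I18Rik, −1.50 for Tiam2 and −1.47 for Nudt7 (adjusted p = 0.014, 0.025 and 0.0038 by limma), near the −1.48 of Pnpla5, whose adjusted p of 0.17 came with a larger SE of 0.45 against 0.23, 0.25 and 0.16. As these genes were chosen for their likeness, their values are a description.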

How the data were processed

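Liver RNA from 3 littermate pairs, each a KRAP-/- and a wild-type mouse, was read on 6 Affymetrix mouse genome arrays. The values the authors deposited are signal intensities on a linear scale, made in GCOS, whose version is not given in the sources used here, and array medians were 19.1 to 23.4. As in the study's scaling of each array to its 50th percentile, each value was divided by its array's median, and 64 control probe sets were left out. The log2 was taken after a floor of 0.1, and limma 3.58.1 in R 4.3.3 was run on the 28531 probe sets whose mean reached 0.5, blocking on littermates, with a trend in intensity and with Benjamini-Hochberg adjustment over all of them at 0.05. The floor and the filter act on dim genes and could change their values. The limit of 1.5-fold in each of 3 pairs was counted with no floor, no filter and no p, and without the study's later scaling to the wild-type average.

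That KO1 to KO3 and WT1 to WT3 are littermates by number comes from the series' design text and the methods. Deviations of littermates from their genotype means correlated at 0.0429, 0.00954 and −0.0124 in pairs 1 to 3, and the pairing was taken from that statement alone.

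Symbols came from the platform's annotation, in which 34945 probe sets had 1 symbol, 932 several and 9160 none. All 10 members are named with all their probe sets. Of the droplet list, genes past the threshold are named, and for the member with the largest change the 3 genes most like it. Of the fat cell markers, Adipoq is named by rule, and other genes were named after their values were seen. Members and lists were chosen with earlier results of these data known. A gene of a list counts at its brightest probe set. The fit was tested on simulated data. The alternatives were other scalings, floors, a pseudocount, filters, moderation, no block and each pair left out. Promoters came from a RefSeq table of GRCm38.p6. Python 3.11.15 with pandas 2.3.3, numpy 2.4.6 and matplotlib 3.10.9 made the tables and plots. The number of arrays limits the precision.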

Additional observations from a re-analysis of the deposited data

How the results depend on the processing

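Over all settings tried for the tested member probe sets, 147 of 162 log2 fold changes kept direction and side of the threshold, 1 passed it anew and 14 reversed. The count of members lower in KRAP-/- liver by limma was 0, and 0 to 1 when 1 pair was left out, the 1 being G0s2 without pair 2. No member passed as higher in any setting. By the 1.5-fold filter, leaving out 1 pair gave 0 to 2 members higher (Pnpla3 without pair 1, dim probe sets of Lipe and Mgll without pair 2) and 0 to 1 lower (a dim probe set of Abhd5 without pair 1, Pnpla5 without pair 3). The droplet list had 0 genes higher and 0 lower both with no filter and with no intensity trend, settings in which 0 of all probe sets passed, with 4551 and 3089 at an unadjusted p under 0.05. It had 0 lower without _x_at and _s_at probe sets, a setting that drops the probe set of Acsl3, and 1 to 2 higher when 1 pair was left out, the further gene being Fitm2 (0.53, adjusted p = 0.049 by limma, without pair 3).

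Reversals were of values within their error. On the values as deposited and after quantile normalization, log2 fold changes were 0.043 and 0.060 for Abhd5 (first probe set), 0.032 and 0.027 for Cideb, and 0.019 and 0.034 for the third Mgll probe set. Pnpla3 was −0.12 with a floor of 0.25. With 1 pair left out the ranges were −0.12 to 0.15 for Abhd5, −0.039 to 0.019 for Cideb, −0.37 to 0.13 for Lipe, −0.11 to 0.18, −0.30 to 0.16 and −0.28 to 0.20 for the 3 Mgll probe sets, −0.68 to 0.27 for Pnpla3 (under the minimum without pair 1), −0.19 to 0.13 for Plin2, −0.21 to 0.11 for Plin3 and −0.89 to 0.05 for Fabp4. The cause was not tested.

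With no replicate block the log2 fold change of Pnpla5 stayed at −1.48 (adjusted p = 0.12) and that of G0s2 at −0.66 (adjusted p = 0.33, limma in both cases), and the block changed no call among members or the droplet list. Over all probe sets, 123 were higher and 279 lower, against 186 and 349 without pair 2, 295 and 469 without pair 3, and 0 and 0 with no filter or no trend. Dim signals limit what can be said of Pnpla3, Pnpla5, Cidea and Cidec.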
